A study of Mus musculus with 5 samples.

Results

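The genes of the cytosolic ribosomal proteins were described in 5 RNA-seq libraries of mouse embryonic fibroblasts (MEFs). A gene was taken where the gene column of the deposited tables held a single symbol made of Rpl or Rps and digits, with at most 1 of the endings a, x, l and l1, or was Rplp0, Rplp1, Rplp2 or Rpsa, while symbols ending in -ps, which mark pseudogenes, were left out. This gave 60 loci of the 22894 loci with 1 symbol, and 52 symbols of 21372. Of the 52 symbols, 31 encode proteins of the large ribosomal subunit and 21 encode proteins of the small subunit. A further 29 ribosomal protein symbols stood only in loci that the tables join with other symbols, and these joined loci are described apart.

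All cells were C57BL/6 MEFs from E14.5 embryos, grown to passage 30. The libraries called M, P, MP and EV came from Prep1-hypomorphic cells, which make little of the homeodomain protein Prep1. By their labels, M overexpressed Meis1, P overexpressed Prep1, MP overexpressed both proteins, and EV was infected with an empty vector. WT was labelled Prep1 wild-type with no vector named, although the culture text given for it speaks of hypomorphic embryos, as it does for the other 4 libraries. Each group was 1 library, so no difference below has a replicate check and none was tested.

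Ribosomes are built from ribosomal RNA and proteins, with a large subunit that forms peptide bonds and a small subunit that reads the mRNA. The ribosomal protein genes are transcribed in many cell types together, and their mRNAs begin with a run of pyrimidines through which growth signals adjust translation. Prep1, encoded by Pknox1, and Meis1 are TALE homeodomain proteins that bind DNA, often beside Pbx partners.

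Values were in FPKM, a read density set relative to gene length and library size, and the libraries differed widely in scale. The upper quartile over the 22338 single-symbol loci that reached 1 FPKM in some library was 429 FPKM in M, 11.6 in P, 9.63 in MP, 157 in EV and 12.2 in WT, so each library was scaled to an upper quartile of 10 units. Library depth is unknown. The range above the upper quartile was narrow, and the 99th percentile stood at 2.05, 1.84, 1.96, 2.10 and 1.75 times the upper quartile in M, P, MP, EV and WT. All 9 fibroblast markers with a locus of their own were at 5 units or more in every library, while no marker of epithelium, endothelium, blood or muscle was; of the 4 neuron markers 1 was. Meis1 stood at 16.8 units in M, 8.86 in P, 15.4 in MP, 8.32 in EV and 12.4 in WT. Pknox1 stood at 3.25, 0.55, 0.57, 2.16 and 11.0 units in the same order. Pknox1 was thus not higher than EV in the libraries labelled P and MP, against their labels, and every direction drawn from those libraries below rests on labels that this gene did not bear out; P and MP stand below for the libraries labelled so.

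On the scaled values the ribosomal protein genes had their highest level in EV and their lowest in WT, but with FPKM as deposited the median member was higher in M than in EV, and with scaling to the median it was 0.06 higher in MP than in EV on the log2 scale. Their median level was 8.59 units in M, 8.42 in the library labelled P, 8.41 in the library labelled MP, 11.5 in EV and 7.30 in WT. The same order of EV and WT stood in the rank of the members among the scaling loci, which no scaling can change. The median member was at percentile 70.9 in M, 69.6 in P, 70.6 in MP, 79.5 in EV and 64.8 in WT. The joined loci had another order, with medians at percentile 82.0 in M, 94.4 in P, 81.5 in MP, 91.7 in EV and 89.3 in WT. There P ranked above EV, and WT ranked above M and MP. Of the 51 members at 1 unit or more in any library, 40 were highest in EV, where 25.8% of all symbols were highest, and 34 were lowest in WT, where 41.3% of all symbols were lowest. In the joined loci EV was also the highest library in 24 of 33. WT was the lowest in 14 of 33, a share near the 41.3% of all symbols, so these loci did not repeat the low place of WT. Fewer cells with a high ribosomal protein content and less such RNA in each cell cannot be told apart in these bulk libraries. The ratio of the 99th percentile to the upper quartile was likewise highest in EV and lowest in WT, and its part in the order of the libraries was not tested.

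**Figure D1:**
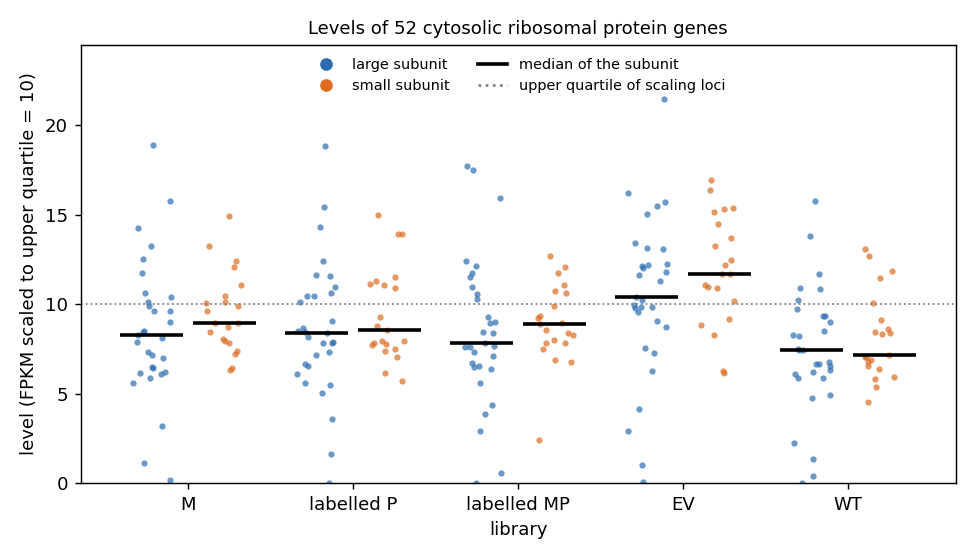
Level of each of the 52 ribosomal protein genes (y axis, FPKM scaled so that the upper quartile of each library is 10) in the 5 libraries (x axis), with large subunit genes left and small subunit genes right in each library. Black bars are medians over genes, which lie at 10.4 units for the large and 11.7 units for the small subunit in EV, above the bars of the 4 other libraries, although with scaling to the median the median member ratio of MP over EV turned to 0.06 and with FPKM as deposited that of M over EV turned to 1.13.

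Most members lay in a narrow band. In EV 33 of 52 members were at or above percentile 75 and 10 at or above percentile 90. In WT these counts were 11 and 4. Rpl27, a protein of the large subunit, was the highest member, with 18.9 units in M, 18.8 in P, 17.7 in MP, 21.5 in EV and 15.8 in WT. Rpl5, which binds 5S ribosomal RNA and can restrain Mdm2, came next, with 15.8 units in M, 15.4 in P, 17.5 in MP, 15.5 in EV and 13.8 in WT. At the other end, the testis-type copy Rpl10l had 0.16 units in M and 0.06 in EV and was listed at 0 in P, MP and WT, and it never reached the level of 1 unit needed for a comparison. The median member ranged over 0.56 in log2 of (scaled level + 1), or 1.48-fold in that sum, between its lowest and its highest library. Over 11866 symbols at 1 unit or more in any library the median range was 0.44, or 1.36-fold. Adding 1 narrows the range of low genes, and most members lay at 5 units or more, so these medians are not at like levels.

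The large and the small subunit stood close together in every library. The median large subunit gene had 8.30 units in M, 8.41 in P, 7.83 in MP, 10.4 in EV and 7.44 in WT. The median small subunit gene had 8.97 units in M, 8.56 in P, 8.91 in MP, 11.7 in EV and 7.17 in WT. Large minus small was −0.10, −0.02, −0.17, −0.15 and 0.05 as a difference of median log2 levels in M, P, MP, EV and WT, so the sign in WT was opposite to that of the other libraries. Adding the joined loci, to 50 large and 30 small subunit genes, gave −0.02 in M, 0.13 in P, 0.03 in MP, −0.11 in EV and 0.12 in WT, so the sign turned in P and MP. Large subunit genes held 57.1% of the summed member level in M, 57.4% in P, 58.4% in MP, 56.4% in EV and 57.2% in WT. The order of the subunits therefore depended on which loci were counted, whereas both were highest in EV.

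Set against EV, the 3 libraries that carried a transgene by their labels had lower ribosomal protein levels. Ratios are given as log2 of (scaled level + 1) in the first library over the second, a scale that understates changes of low genes, and a call means a ratio of at least 1.2-fold. In M against EV, 29 of 51 members were lower, where 12.3% of all symbols were, and 2 were higher, where 7.98% of all symbols were. In the library labelled P against EV, 25 of 51 were lower, where 21.2% of all symbols were, and 4 were higher, where 13.0% of all symbols were. In the library labelled MP against EV, 32 of 50 were lower, where 16.9% of all symbols were, and 0 were higher, where 7.08% of all symbols were. The median member ratio was −0.28 in M, −0.23 in P and −0.33 in MP with all symbols at −0.01, −0.05 and −0.04, but it turned to 1.13 in M with FPKM as deposited, where all symbols stood at 1.26, and to 0.06 in MP with scaling to the median, where all symbols stood at 0.06. Relative to the median of all symbols the members stood at −0.26 in M, −0.17 in P and −0.29 in MP, and with scaling to the median at −0.17, 0.09 and −0.01, so in P the sign of that relative value turned as well. With FPKM as deposited 52 members were higher in M than in EV and 51 were lower in P and in MP than in EV, so that scale gave nearly every member the same direction. These comparisons share the EV library, so a high value in EV lowers all 3 ratios at once. The 9 fibroblast markers had medians over EV of −0.13 in M, −0.36 in P and −0.15 in MP, with 3, 6 and 2 lower and 0, 1 and 1 higher, and their part in the result was not tested.

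Both subunits took part. In M against EV the large subunit median was −0.26 and the small −0.29, with 15 of 30 and 14 of 21 genes lower. In P against EV the medians were −0.19 and −0.29, with 13 and 12 genes lower. In MP against EV they were −0.32 and −0.41, with 19 of 29 and 13 of 21 genes lower, and with scaling to the median the large subunit median in MP turned to 0.09 and the small one stood at 0.00. With FPKM as deposited the medians in M turned to 1.18 and 1.13. The 33 joined loci, whose symbols the rule left out, had medians of −0.34 in M, −0.25 in P and −0.29 in MP, each over EV, and the last turned to 0.12 with scaling to the median and the first to 1.08 with FPKM as deposited. Changes of 2-fold or more were rare. None of 51 members reached it in M against EV, where 0.924% of all symbols did. In P against EV 1 member reached it, where 2.50% of all symbols did, and in MP against EV 1 did, where 2.26% of all symbols did.

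**Figure D2:**
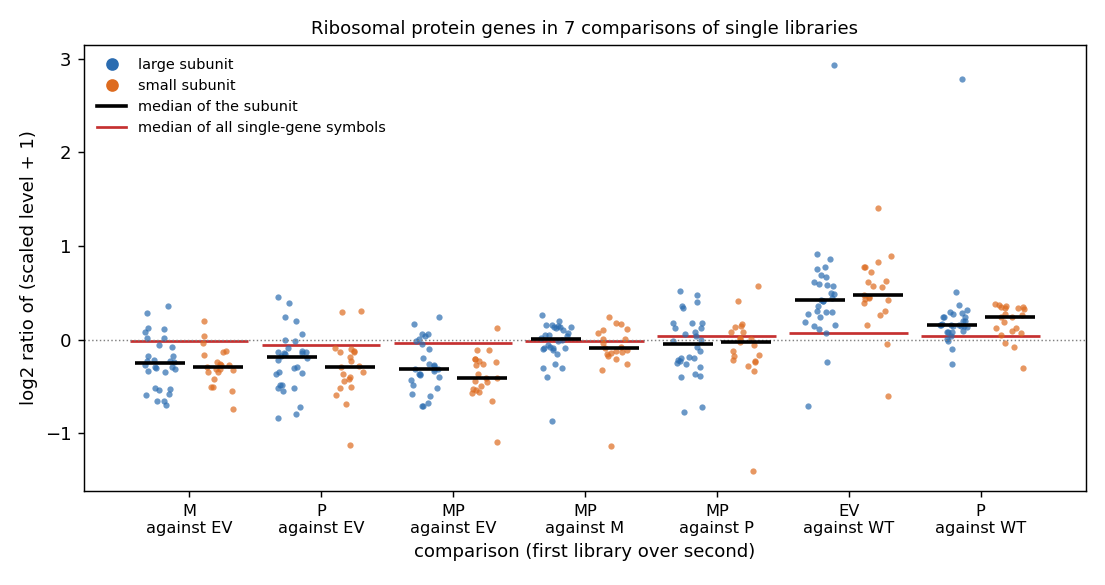
Log2 ratio of (scaled level + 1) (y axis) of each ribosomal protein gene at 1 unit or more in either library, for 7 comparisons (x axis), with black bars at the subunit medians and a red line at the median of all single-gene symbols. Both subunits lie below 0 in M, P and MP against EV and above 0 in EV against WT, but with scaling to the median the member median of MP against EV turned to 0.06, and with FPKM as deposited that of M against EV turned to 1.13.

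Among large subunit genes, Rpl32, Rplp1, Rpl36, Rpl7, Rpl11 and Rpl7a had the lowest ratios over EV. Rpl32 had 5.89 units in M, 5.06 in P, 5.62 in MP, 9.83 in EV and 4.74 in WT. Its log2 ratio over EV was −0.65 in M, −0.84 in P and −0.71 in MP, the first of which turned to 0.70 with FPKM as deposited. Only EV stood apart for this gene, and the other 4 libraries lay between 4.74 and 5.89 units. Rplp1, an acidic protein of the stalk that recruits elongation factors, had 7.17 units in M, 8.41 in P, 7.08 in MP, 12.2 in EV and 6.75 in WT, and its ratio over EV was −0.70 in M, which turned to 0.67 with FPKM as deposited, and −0.71 in MP. Rpl36 had 6.14 units in M, 8.67 in P, 6.40 in MP, 10.3 in EV and 7.44 in WT, which made M its lowest library, at −0.66 over EV, but 0.70 with FPKM as deposited. EV was the highest library for all 3 genes.

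Rpl7 had 6.46 units in M, 5.51 in P, 7.32 in MP, 9.77 in EV and 4.92 in WT, and its ratio of P over EV was −0.73. Rpl11, which like Rpl5 binds 5S ribosomal RNA and Mdm2, had 8.30 units in M, 5.59 in P, 8.43 in MP, 10.4 in EV and 6.09 in WT. Its ratio of P over EV was −0.79, and P was its lowest library. Rpl5 did not follow Rpl11, since its ratio of MP over EV was 0.16 and MP was its highest library. Rpl7a had 8.44 units in M, 9.09 in P, 7.83 in MP, 13.1 in EV and 8.51 in WT, and its ratio of MP over EV was −0.68.

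A few large subunit genes ran the other way. Rpl24, which bridges the subunits, had 5.61 units in M, 6.09 in P, 4.37 in MP, 4.16 in EV and 7.46 in WT, so EV was its lowest library. Its ratio over EV was 0.36 in M and 0.46 in P, and with FPKM as deposited that in P turned to −3.17. Rpl34 had 7.87 units in M, 7.32 in P, 3.87 in MP, 6.26 in EV and 5.90 in WT, with ratios over EV of 0.29 in M and 0.20 in P. Both genes also stand in a joined locus where EV is the highest library, at 22.1 units for Rpl24 and 15.1 for Rpl34, and they were the 2 members called higher in M against EV, so leaving out symbols of that kind, an alternative chosen after the data were seen, left 0 members higher. Rpl21 was the most even member, with 7.34 units in M, 7.15 in P, 7.59 in MP, 7.26 in EV and 6.65 in WT, a range of 0.17 on the log2 scale.

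Among small subunit genes, Rps15a ran against the group. Rps15a, a protein of the small ribosomal subunit, had 7.21 units in M, 7.73 in P, 6.76 in MP, 6.15 in EV and 6.37 in WT. It was higher than EV in all 3 transgene libraries, with ratios of 0.20 in M, 0.29 in P and 0.12 in MP, of which those in P and MP turned to −3.42 and −3.67 with FPKM as deposited.

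Of the 21 small subunit genes, 19 were highest in EV and 15 lowest in WT. The genes that follow were picked after their values were seen, so their order is an example and adds nothing to these counts. Rps9 had 12.4 units in M, 10.9 in P, 11.1 in MP, 17.0 in EV and 9.11 in WT. Rps20 had 10.0 units in M, 11.1 in P, 9.23 in MP, 15.2 in EV and 8.47 in WT. Rps27a, which is made as a fusion with ubiquitin, had 8.94 units in M, 7.78 in P, 7.82 in MP, 11.0 in EV and 7.06 in WT. For all 3 genes EV was the highest and WT the lowest library. Rps6, the substrate of the S6 kinases, had 8.47 units in M, 7.48 in P, 8.53 in MP, 10.2 in EV and 7.06 in WT.

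**Figure D3:**
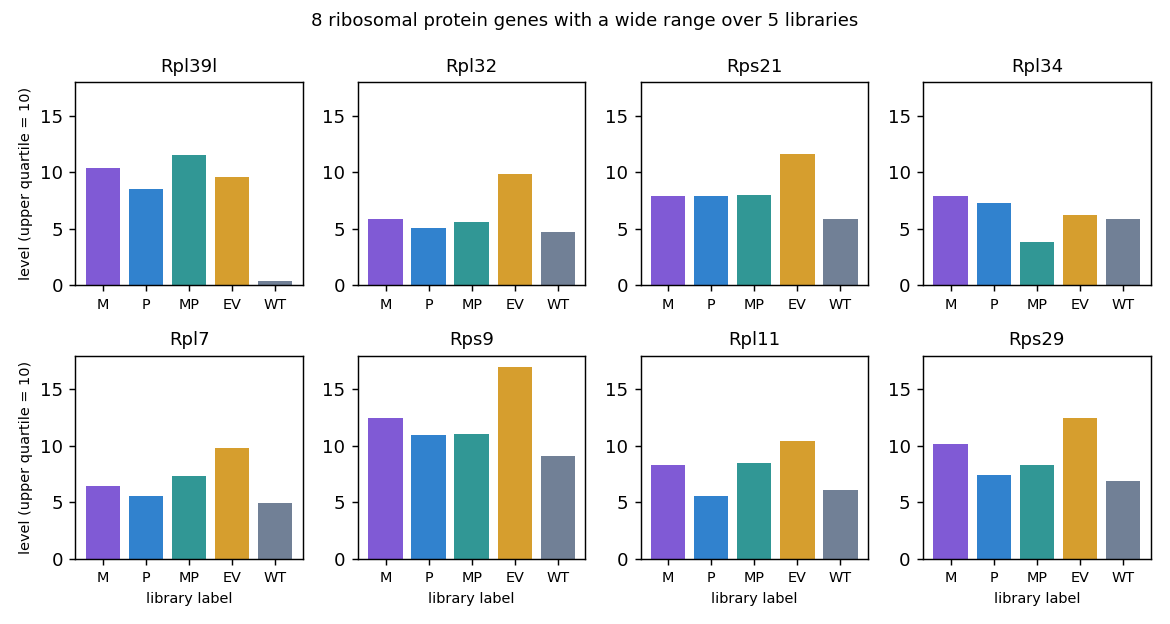
Level (y axis, upper quartile of each library at 10) of 8 ribosomal protein genes, those with the widest log2 range over the libraries among the members reported by name, as 1 bar for each library label (x axis). Rpl32, Rps21, Rpl7, Rps9 and Rps29 are highest in EV and lowest in WT, Rpl39l is at 0.38 units in WT alone, Rpl34 is lowest in MP and Rpl11 in P, but with FPKM as deposited the log2 ratio of M over EV turned to 0.70 for Rpl32.

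Promoter windows from RefSeq on build GRCm38.p6, from 250 bases before to 50 bases after each annotated start, were found for 40 of the 52 symbols, as 48 windows. The windows below show 3 genes of both subunits that were highest in EV (Rps9, Rps21 and Rpl11), Rps15a, which was lower in EV than in M, P, MP and WT, and Rpl39l, the member that differed most between hypomorphic and wild-type cells. They run from 120 bases before the start to the 20 bases from it, 140 bases each, and are written 5′ to 3′ on the strand of the gene. Capitals mark CTTTC or CTTTT on the gene's strand, CCGGAA (the core of sites for ETS factors) and AAGATGG (YY1), the last pair on either strand, where matches may overlap. The positions are chr7:3703921-3704060 on the plus strand, chr2:180257259-180257398 on the plus strand, chr4:136053374-136053513 on the minus strand, chr7:118116128-118116267 on the minus strand and chr16:10170108-10170247 on the plus strand.
Rps9: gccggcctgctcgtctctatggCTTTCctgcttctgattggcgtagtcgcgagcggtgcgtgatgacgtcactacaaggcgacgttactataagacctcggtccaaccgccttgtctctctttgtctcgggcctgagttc
Rps21: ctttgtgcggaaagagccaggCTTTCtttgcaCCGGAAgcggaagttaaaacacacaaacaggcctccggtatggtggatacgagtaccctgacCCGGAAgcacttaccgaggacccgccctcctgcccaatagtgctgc
Rpl11: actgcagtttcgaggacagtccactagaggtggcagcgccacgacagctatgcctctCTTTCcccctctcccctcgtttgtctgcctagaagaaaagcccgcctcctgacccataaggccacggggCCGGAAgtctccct
Rps15a: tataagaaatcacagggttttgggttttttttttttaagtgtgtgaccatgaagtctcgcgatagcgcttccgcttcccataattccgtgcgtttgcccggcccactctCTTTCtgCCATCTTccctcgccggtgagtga
Rpl39l: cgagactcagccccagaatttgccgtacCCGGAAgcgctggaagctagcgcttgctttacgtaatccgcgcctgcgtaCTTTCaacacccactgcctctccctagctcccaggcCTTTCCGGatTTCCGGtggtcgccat

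A pyrimidine motif, CTTTC or CTTTT, that began within 10 bases of the annotated start was found in 12 of the 48 member windows (25%), against 5.33% of 32851 RefSeq windows. CCGGAA or its complement was in 24 windows (50%), against 14.9% of all. AAGATGG was in 7 (14.6%), against 6.34% of all, and GGGCGG, the core of Sp1 sites, was in 27 (56.2%), against 35.7% of all. TGANTCA, the AP-1 motif, was in 1 window (2.08%), against 7.81% of all, and TGACAG, bound by Meis and Prep proteins, was in 5 (10.4%), against 19.2% of all, both counted on either strand. In the stretches printed above, Rpl39l held 3 matches to CCGGAA, of which 1 overlapped CTTTC, Rps21 held 2 and Rpl11 held 1. A match is a description of letters only, and windows of 1 gene with several starts share sequence.

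In EV against WT, where hypomorphic cells with an empty vector are set against wild-type cells, 39 of 51 members were higher, where 30.3% of all symbols were, and 2 were lower, where 26.3% of all symbols were. The median member ratio was 0.44 with all symbols at 0.07, and among genes at 5 units or more it was 0.46 with all at 0.10. With scaling to the median the members stood at 0.82 and all symbols at 0.68, so their distance was 0.14 on that scale and 0.38 on the upper-quartile scale. The large subunit median was 0.42 and the small 0.47, with 22 of 30 and 17 of 21 genes higher, and the joined loci stood at 0.37. Differences of 2-fold or more were seen for 2 members, of which Rpl39l had the larger, where 9.51% of all symbols reached that size. Vector infection and Prep1 genotype differ together between these libraries and cannot be told apart, and the summed level of the 9 fibroblast markers was also higher, at 141 units in EV and 102 in WT, with 7 of the 9 called higher, 2 called lower (Pdgfrb at −0.34 and Fbn1 at −0.45) and a median ratio of 0.47. The part of this in the result was not tested.

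Rpl39l, a copy of Rpl39 that mouse testis uses in its ribosomes, had 10.4 units in M, 8.51 in P, 11.5 in MP, 9.58 in EV and 0.38 in WT. All 4 hypomorphic libraries lay at 8.51 units or more, and WT was below 1 unit. Its log2 ratio was 2.93 in EV over WT, the 13th highest of 11656 symbols, and 2.78 in P over WT, the 16th highest of 11403. With a pseudocount of 0.1 in place of 1 these ratios were 4.32 and 4.15.

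High ratios of EV over WT were also seen for Rpl32, at 0.91, and Rps21, at 0.89. Rps21, of the small subunit, had 7.93 units in M, 7.92 in P, 7.98 in MP, 11.7 in EV and 5.84 in WT, so M, P and MP lay together between WT and EV. At the low end, the ratio of EV over WT was −0.71 for Rpl24, −0.05 for Rps15a and 0.07 for Rpl34, and with FPKM as deposited that of Rpl24 turned to 2.87.

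In the library labelled P against WT, 16 of 51 members were higher, where 9.40% of all symbols were, and 1 was lower, where 20.5% of all symbols were. The median member ratio was 0.17 with all symbols at 0.04, and it was 0.16 for the large and 0.24 for the small subunit. With scaling to the median 48 members were higher and 0 lower, with a median of 0.57 and all symbols at 0.40. On that scale the median of all symbols was itself past the cut for a call. The share of all symbols called there is not given, so these 48 calls are not a result about the members. After Rpl39l, which alone passed 2-fold where 8.31% of all symbols did, the highest ratios among genes at 5 units or more were 0.38 for Rps21, 0.37 for Rps26 and 0.37 for Rpl38, while Rpl37, below that level, stood at 0.50. Rps26 had 9.89 units in M, 11.1 in P, 10.6 in MP, 14.45 in EV and 8.37 in WT. Rpl38, whose loss changes skeletal patterning in mice, had 13.3 units in M, 14.3 in P, 12.4 in MP, 15.7 in EV and 10.9 in WT. At the low end, the ratio was −0.26 for Rpl24, −0.11 for Rpl11 and −0.08 for Rps27l.

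Adding Prep1 to Meis1 by label, in MP against M, gave few calls on the upper-quartile scale. Of 51 members 7 were lower, or 13.7%, where 11.5% of all symbols were, and 0 were higher, where 4.69% of all symbols were. Among symbols at 5 units or more, where 49 of the members lay, 5.50% were lower and 2.96% higher. The share of members lower was thus near that of all symbols but above that of symbols at 5 units or more. The median ratio of −0.04, with all symbols at −0.01, turned to 0.32 with scaling to the median, where all symbols stood at 0.27 and 34 members were higher and 4 lower. That median of all symbols was itself past the cut for a call, and the share of all symbols called with scaling to the median is not given. The 34 calls are therefore not a result about the members. Past 2-fold there was 1 member, where 1.51% of all symbols were. At the low end, the ratio was −0.87 for Rpl34, −0.33 for Rps14 and −0.30 for Rpl13. Rps14, of the small subunit, had 14.9 units in M, 13.9 in P, 11.7 in MP, 15.4 in EV and 12.7 in WT. Rpl13 had 9.61 units in M, 10.1 in P, 7.61 in MP, 11.3 in EV and 9.03 in WT, and the ratios of MP over M of Rpl13 and Rps14 turned to 0.04 and 0.03 with scaling to the median. The highest ratios of MP over M were 0.26 for Rpl22l1, 0.24 for Rps27l and 0.20 for Rpl10a.

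In MP against P, 9 of 51 members were lower, where 17.7% of all symbols were, and 7 were higher, where 13.8% of all symbols were, so both shares were close to those of all symbols. Among symbols at 5 units or more, where 49 of the members lay, 12.5% were lower and 14.6% higher. The share of members lower, at 17.6%, was above the first of these. The median ratio of −0.03, with all symbols at 0.04, turned to 0.36 with scaling to the median, where all symbols stood at 0.40 and 28 members were higher and 3 lower. That median of all symbols was itself past the cut for a call, and the share of all symbols called with scaling to the median is not given. The 28 calls are therefore not a result about the members. Past 2-fold there was 1 member, where 1.01% of all symbols were. At the low end stood Rpl34 at −0.77, Rpl24 at −0.40 and Rpl36 at −0.39. At the high end stood Rpl11 at 0.52, Rpl22l1 at 0.47 and Rps27l at 0.41. Rpl10a had 6.52 units in M, 6.67 in P, 7.65 in MP, 9.95 in EV and 5.89 in WT.

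Of the stalk genes and Rpsa, only Rplp1 had a locus of its own. Rplp0, the base of the stalk, was joined with Gcn1l1, and that locus had 30.1 units in M, 28.2 in P, 30.1 in MP, 32.6 in EV and 24.7 in WT. Rplp2, joined with the small nucleolar RNA gene Snora52, had 17.9 units in M, 19.2 in P, 18.8 in MP, 21.0 in EV and 14.54 in WT. Rpsa, a small subunit protein also known as the laminin receptor, was joined with Snora62 and had 13.1 units in M, 12.5 in P, 12.2 in MP, 15.6 in EV and 11.4 in WT. In all 3 joined loci EV was highest and WT lowest, as for Rplp1, but the level of a joined locus sums over its genes and cannot be given to 1 of them.

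The paralogs, whose names end in l or l1, did not share 1 pattern. Rpl7l1, which takes part in ribosome assembly, was the third highest member, with 14.3 units in M, 12.4 in P, 16.0 in MP, 16.2 in EV and 11.7 in WT, above Rpl7 in every library. These values are of the highest of its 3 own loci. Another had 4.83 units in M, 5.05 in P, 3.64 in MP, 3.80 in EV and 4.36 in WT. The last had 1.44 in M, 0.92 in P, 0.76 in MP, 0.76 in EV and 0.55 in WT. Both lay below Rpl7 in every library, and their ratios of M over EV were 0.28 and 0.47. Rpl22l1, a copy of Rpl22, had 9.61 units in M, 8.18 in P, 11.7 in MP, 12.2 in EV and 8.30 in WT. Rps27l, a target gene of p53, had 8.97 units in M, 7.86 in P, 10.7 in MP, 11.7 in EV and 8.33 in WT, while Rps27 had 8.70 units in M, 9.31 in P, 7.84 in MP, 11.1 in EV and 7.17 in WT. Rps27l and Rps27 thus differed in the order of P and MP. Rpl39 stood only in a locus joined with Snora69, at 23.8 units in M, 21.6 in P, 21.8 in MP, 24.3 in EV and 19.1 in WT, so the low value of Rpl39l in WT had no like in that locus. Rpl10, joined with Snora70, had 12.4 units in M, 15.4 in P, 14.4 in MP, 16.6 in EV and 15.7 in WT.

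Of the members, 5 symbols stood both in a locus of their own and in a joined one, and Rpl24, Rpl34 and Rpl37 are described here. Rpl13a, the second lowest member by level, had 1.10 units in M, 1.63 in P, 0.59 in MP, 0.997 in EV and 1.35 in WT in its own locus. For Rpl24 the joined locus had 20.1 units in M, 21.4 in P, 19.9 in MP, 22.1 in EV and 21.3 in WT, so EV, the lowest library in its own locus, was the highest here. For Rpl34 the joined locus had 10.9 units in M, 12.5 in P, 9.45 in MP, 15.1 in EV and 10.4 in WT. Rpl37 had 3.22 units in M, 3.58 in P, 2.92 in MP, 2.89 in EV and 2.23 in WT in the own locus used here, and 11.5 in M, 14.48 in P, 9.67 in MP, 10.0 in EV and 12.1 in WT in the joined one. Rpl37 has a second locus of its own, with 2.96 units in M, 2.98 in P, 2.13 in MP, 3.71 in EV and 2.09 in WT, where EV is the highest library and the ratio of M over EV is −0.25, against 0.12 in the first. Without all 5 symbols that also stand in joined loci, 1 member was higher in P against EV.

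**Figure D4:**
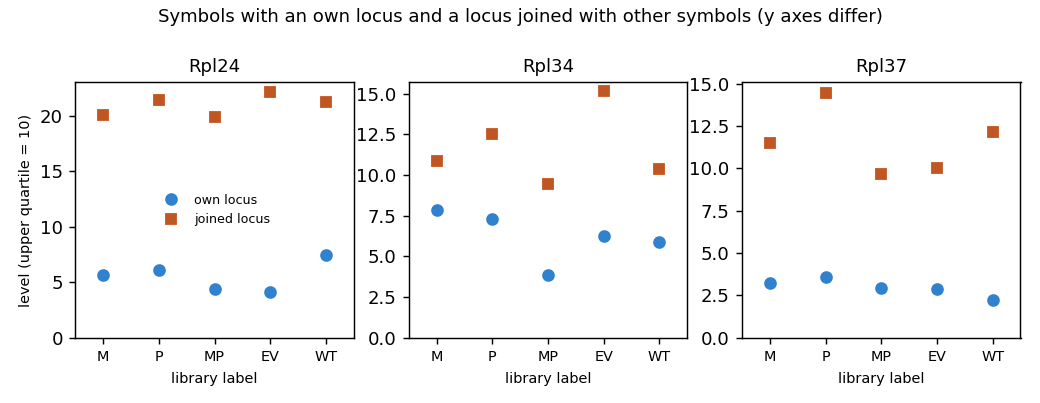
Level (y axes, upper quartile of each library at 10; each panel has its own scale) of the own locus (circles) and the joined locus (squares) of 3 ribosomal protein symbols in the 5 libraries (x axis). For Rpl24, EV is the lowest library in the own locus, at 4.16 units, and the highest in the joined locus, at 22.1 units.

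Other genes of the translation machinery were read from lists beside the members. Fau, made as a fusion with a ubiquitin-like protein, had 9.10 units in M, 11.5 in P, 9.13 in MP, 14.49 in EV and 11.0 in WT, and Rpl36al had 9.59 in M, 8.99 in P, 8.59 in MP, 12.1 in EV and 6.63 in WT. Both were highest in EV. Of 32 translation initiation factors 11 were lower in M against EV, 20 in P against EV and 8 in MP against EV, and 27 were higher in EV against WT, with medians of −0.15, −0.35, −0.16 and 0.47. Of 33 ribosome biogenesis factors 7, 18 and 4 were lower in M, P and MP against EV, and 25 were higher in EV against WT, with medians of −0.15, −0.28, −0.12 and 0.39. Of all symbols 12.3%, 21.2% and 16.9% were lower in M, P and MP against EV, and 30.3% were higher in EV against WT. The share of biogenesis factors lower in MP against EV, at 12.1%, was thus below that of all symbols. It was above the 10.8% of all symbols at 5 units or more, where nearly all of these factors lay. The other shares of both lists were above those of all symbols. With scaling to the median the medians of both lists in MP turned to 0.26 and 0.31, and with FPKM as deposited those in M turned to 1.28 and 1.28. These lists were lowest in P among the 3 ratios over EV, whereas the ribosomal protein median was lowest in MP, which with scaling to the median turned to 0.06.

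Of 67 mitochondrial ribosomal protein genes, which serve a separate ribosome, 10, 16 and 8 were lower in M, P and MP against EV, and 28 were higher in EV against WT, with a median of 0.23. The shares lower were 14.9%, 23.9% and 11.9%, near or below the 12.3%, 21.2% and 16.9% of all symbols, and the share higher was 41.8%, against 30.3% of all symbols. Of all symbols at 5 units or more, 8.67%, 19.7% and 10.8% were lower, and the mitochondrial shares were above these. The 12 RNA polymerase I factors, which make ribosomal RNA, had a median of 0.30 in EV against WT, with 6 of them higher and 3 lower. The list of elongation factors and genes named after them had 4 genes with a locus of their own and a median of 0.10 in that comparison. Eef1e1 was higher, at 0.42, and Eef2k, which is not itself an elongation factor, was lower, at −0.41. Eef1a1 at 0.11 and Eef2 at 0.09 were not called. The 13 mTOR pathway genes had medians of 0.02, −0.11 and 0.01 in M, P and MP against EV, and 3 were higher and 1 lower in EV against WT. The 8 genes of nucleolar stress and p53 had medians of 0.07, 0.00 and 0.12 over EV, and 2 were higher and 2 lower in EV against WT. The 7 S6 kinase genes had medians of 0.00, −0.01 and 0.06 over EV, with 2 higher and 3 lower in EV against WT. In EV against WT 30.3% of all symbols were higher and 26.3% were lower. The shares higher and lower were 50% and 25% for RNA polymerase I factors, and 25% each for the elongation factor list and for nucleolar stress. They were 23.1% and 7.69% for mTOR genes and 28.6% and 42.9% for S6 kinase genes, all over few genes.

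**Figure D5:**
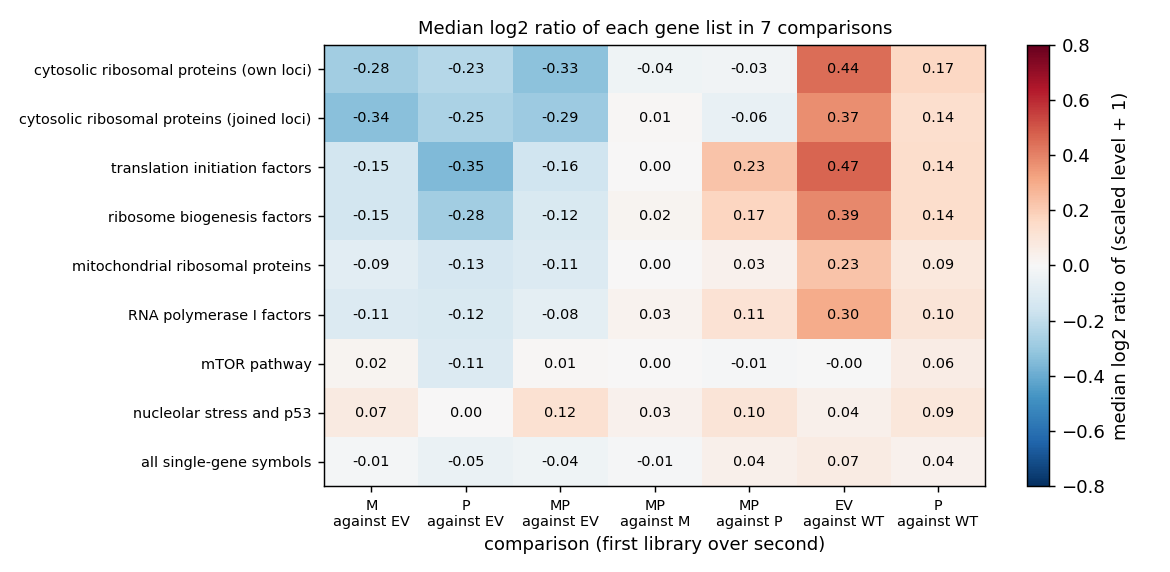
Median log2 ratio of (scaled level + 1) for the ribosomal protein genes, 6 lists of related genes and all single-gene symbols (rows) in 7 comparisons (columns), by colour and printed value. Ribosomal proteins, initiation factors and biogenesis factors lie between 0.37 and 0.47 in EV against WT, where all symbols lie at 0.07, and the ribosomal protein medians of MP against EV, MP against M and MP against P turned to 0.06, 0.32 and 0.36 with scaling to the median.

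The authors' deposited table for M against EV called 2 members, Rps15a and Rps4x, as higher and 0 as lower, where 18.0% of the loci it tested were called higher, and it gave no test for 28 members with status FAIL. Its q-value was 0.0105 for Rps15a, at 309 FPKM in M and 96.7 in EV, and 2.97e-05 for Rps4x, at 517 FPKM in M and 241 in EV. In M against EV 23 members had status OK and were tested, and 1 had status NOTEST. The share of tested loci called lower is not given. On the scaled levels Rps4x had 12.1 units in M, 13.9 in P, 12.7 in MP, 15.3 in EV and 11.4 in WT, so M was below EV. The authors' deposited tables called 42 members lower in P against EV, where 98.7% of the loci tested were called lower, 41 lower in MP against EV, where 99.2% were, and 42 higher in EV against WT, where 96.5% were. Those tables compare FPKM on the deposited scale, where nearly every locus differs in the same direction, so these calls are not about the members.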

How the data were processed

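RNA of 5 MEF libraries was compared, 1 for each group. Per the submitters' processing notes, TopHat, Cufflinks and Cuffdiff were run on mm9; versions and the handling of reads shared by copies of a gene are not given in the sources used here, so levels of genes with near-identical copies or pseudogenes, or that overlap others, are uncertain. The authors deposited 4 tables of FPKM for EV against 1 other library, with p-values and q-values from Cuffdiff; counts and depth were not used here. EV was read from the table of M, since the EV columns of the other tables differ from it by a constant of 1.10, 0.972 or 1.12.

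With Python 3.11.15, pandas 2.3.3, numpy 2.4.6 and matplotlib 3.10.9, FPKM was scaled to an upper quartile of 10, 1 locus was kept for each symbol (the highest mean log2), and log2 ratios were taken with a pseudocount of 1 for genes at 1 unit or more in either library. With 1 library a group no test was possible; calls are folds of 1.2 and 2. The steps were tested on simulated data. Named genes were the 4 highest and 4 lowest members of each comparison at 5 units or more, the 3 highest and lowest by level, stalk genes and Rpsa, paralogs, and the authors' minority calls; Rps9, Rps20, Rps6, Rps27a, Rps29 and Rpl37's joined locus were added after their values were seen. Members and lists were chosen with earlier results of these data known. Alternatives covered scaling, pseudocount, filters, loci, the EV column and members. Some members are not reported here by name; they stay in the counts and medians.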

Additional observations from a re-analysis of the deposited data

Results flagged for a closer look

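The members below had ratios of opposite sign in MP over P and in M over EV, each of at least 1.2-fold, that is, where Meis1 was added by label with and without Prep1. Other members had opposite signs with a smaller ratio, such as Rpl10a at 0.17 and −0.54 and Rpl32 at 0.13 and −0.65. The share of all symbols with opposite signs is not given, so the list is not a result about these members. Of 51 members, 42 were below 0 in M over EV, while 28 were below and 23 above 0 in MP over P. With 1 library a group, the difference was not tested. MP over P and M over EV were 0.52 and −0.30 for Rpl11, 0.47 and −0.31 for Rpl22l1, and 0.35 and −0.53 for Rpl7. They were 0.41 and −0.35 for Rps27l. They were −0.40 and 0.36 for Rpl24 and −0.77 and 0.29 for Rpl34, which both also stand in a joined locus. Pknox1 was 0.57 units in MP and 0.55 in P, so it did not mark these libraries as their labels say.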

How the results depend on the processing

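No paired analysis was possible because each group is 1 library. With FPKM as deposited, put on the EV scale of 1 table, the median member ratio was 1.13 in M against EV (52 members higher, 0 lower), −4.03 in P against EV (51 lower, 0 higher), −4.21 in MP against EV (51 lower), −5.27 in MP against M (52 lower) and 4.22 in EV against WT (0 lower), with 19 members lower in MP against P and 2 in P against WT; Rpl32, Rpl36 and Rplp1 turned to 0.70, 0.70 and 0.67 in M against EV, Rpl24 and Rps15a to −3.17 and −3.42 in P against EV, and Rpl24 to 2.87 in EV against WT. Here the unequal scale of the tables enters by construction. Scaling to the median, which lies at only 1.02 FPKM in MP, gave medians of 0.056 in MP against EV (6 lower, 12 higher), 0.32 in MP against M (4 lower, 34 higher), 0.36 in MP against P (3 lower, 28 higher), 0.82 in EV against WT and 0.57 in P against WT (0 lower, 48 higher), with 4 higher in M against EV; Rpl13 and Rps14 turned to 0.040 and 0.026 in MP against M. This scaling moved the median of all symbols to −0.30 in P against EV, 0.06 in MP against EV, 0.27 in MP against M, 0.40 in MP against P, 0.68 in EV against WT and 0.40 in P against WT. All of these but that of MP against EV were past the cut for a call. Shares of all symbols called with scaling to the median are not given, so the counts of members called under it are not a result about the members. Scaling by the median ratio gave 0.31 in EV against WT, with 1 member higher in MP against M, 16 lower in MP against P and 2 lower in P against WT. With a pseudocount of 0.1, 1 member was higher in MP against EV and in MP against M, and 2 were lower in P against WT. Without paralogs 3 were higher in MP against P. Without symbols that also stand in joined loci, chosen after the data were seen, 0 were higher in M against EV and 1 in P against EV, 0 were lower in EV against WT, 3 in MP against M, 5 in MP against P and 0 in P against WT. Large minus small in EV was −0.0046 with members at 5 or more, −0.045 with loci summed and −0.033 without those symbols, and in MP −0.036 with members at 5 or more. Over loci above 0 the median percentile was 68.7 in M, 61.0 in P, 60.9 in MP, 79.5 in EV and 56.7 in WT. The cause of these moves was not tested. The member medians of P against EV, EV against WT and P against WT kept their sign under every scaling tried, with FPKM as deposited included, where the unequal scale enters. Relative to the median of all symbols, that of P against EV turned from −0.17 to 0.09 with scaling to the median. Those of EV against WT and P against WT stayed above 0 on that relative value. That of M against EV stayed below 0 on it, at −0.26 on the upper-quartile scale, −0.17 with scaling to the median and −0.13 with FPKM as deposited. That of MP against EV was −0.29 on the upper-quartile scale and −0.01 with scaling to the median. No interval can be given without counts, and 1 library a group leaves the spread between cultures unknown.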
